A study of Mus musculus with 6 samples.

Results

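The lipid-associated phagocyte genes described here are Gpnmb, Lgals3, Spp1, Cst7, Itgax, Clec7a, Lpl, Axl, Cd68 and Cd63. These 10 genes were chosen by their names, with the readout in view, because Gpnmb and Lgals3 differed strongly between the libraries of this data set. Of the 10, 9 were measured among the 32285 genes of the count matrix, and Clec7a was not analysed here. The study used snRNA-seq, in which the transcripts of individual nuclei are counted, on forebrain from 3 WT and 3 Npc1-/- littermates at postnatal day 16, all untreated. The Npc1-/- mice carry the Npc1nih allele in every cell and, like their littermates, came from a cross of BALB/cJ with C57BL6/J carriers, so no cell type was targeted. The 6 libraries were joined in 1 matrix, where a suffix from 1 to 6 on each barcode names the library. A key from library to mouse was not at hand, so WT and Npc1-/- were not compared and each library is described singly.

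Phagocytes of the brain are microglia, which live among the neurons, and border macrophages, which live around vessels and in the meninges. When these cells engulf myelin, dying cells or lipid, they can switch on a set of genes for lipid uptake, lysosomal breakdown and adhesion while genes of the resting microglial state decline. NPC1 moves cholesterol out of lysosomes, and its loss leaves cholesterol in that compartment.

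The members fall into several roles. Gpnmb encodes a lysosomal and surface glycoprotein, Cd68 a lysosomal membrane glycoprotein of macrophages and Cd63 a tetraspanin of late endosomes that most cells make. Lgals3 encodes galectin-3, a lectin that binds damaged lysosomes and cell surfaces, and Spp1 encodes the secreted glycoprotein osteopontin. Lpl encodes lipoprotein lipase, which releases fatty acids from lipoproteins, and Cst7 encodes cystatin F, an inhibitor of lysosomal proteases. Itgax encodes the integrin subunit CD11c, Axl a receptor kinase for ligands that bridge to dying cells, and Clec7a the glucan receptor dectin-1.

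Promoters are shown for Gpnmb, Lgals3 and Itgax, the members whose levels differed most between subsets of myeloid nuclei below. The windows run from 250 bases before to 50 bases after a transcript start, 5′ to 3′ on the strand of the gene, in RefSeq (GRCm38.p6). All 3 genes are on the plus strand. Capitals mark a match to the AP-1 motif TGACTCA on either strand. The Gpnmb window is chr6:49036268-49036567, the Lgals3 window chr14:47373610-47373909 and the Itgax window chr7:128129300-128129599.
Gpnmb: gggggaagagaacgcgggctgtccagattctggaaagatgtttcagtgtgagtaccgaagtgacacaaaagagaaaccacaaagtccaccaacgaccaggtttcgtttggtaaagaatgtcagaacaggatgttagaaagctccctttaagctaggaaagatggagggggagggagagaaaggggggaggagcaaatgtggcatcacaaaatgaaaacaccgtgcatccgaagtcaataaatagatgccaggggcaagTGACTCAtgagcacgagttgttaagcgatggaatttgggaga
Lgals3: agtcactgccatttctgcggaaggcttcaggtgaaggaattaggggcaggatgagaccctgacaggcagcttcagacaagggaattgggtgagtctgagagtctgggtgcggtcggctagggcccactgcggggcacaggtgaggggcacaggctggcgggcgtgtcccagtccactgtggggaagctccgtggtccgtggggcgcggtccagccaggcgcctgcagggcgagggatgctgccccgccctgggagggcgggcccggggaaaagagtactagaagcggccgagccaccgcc
Itgax: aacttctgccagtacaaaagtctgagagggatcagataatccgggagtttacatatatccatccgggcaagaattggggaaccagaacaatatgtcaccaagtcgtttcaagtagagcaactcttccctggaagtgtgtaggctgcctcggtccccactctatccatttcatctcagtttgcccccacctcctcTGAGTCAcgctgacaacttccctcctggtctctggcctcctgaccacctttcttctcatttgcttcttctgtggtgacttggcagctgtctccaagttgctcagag

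The match in Gpnmb began at base 9 of the transcript, and that in Itgax began 56 bases before the start, on the opposite strand. Of 32851 promoter windows in the table, 5.20% held this motif on either strand. A promoter entry matched 9 of the 10 genes, with 11 windows. Of these 11, 3 held the AP-1 motif (Gpnmb, Itgax and Cd68) and 3 held the PU.1 core GAGGAAG (Spp1, Axl and Cd63), which 13.6% of all windows held. None of the 11 held the E-box CACGTG (7.15% of all windows) or the M-box TCATGTG (3.77%). The Lgals3 window held none of the 4 motifs. These matches are descriptions of letters, and binding was not measured.

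In GENCODE M21 (GRCm38), the build named by the study, Gpnmb is a protein-coding gene on the plus strand of chromosome 6 (49036546 to 49070929) and Lgals3 one on the plus strand of chromosome 14 (47367751 to 47386160). Itgax lies on chromosome 7 (128129547 to 128150657) and Lpl on chromosome 8 (68880491 to 68907448), both on the plus strand. Of the 9 measured members, only Spp1 overlapped another annotated gene, Gm42793 on the same strand, so reads of those 2 genes may not be told apart.

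After nuclei with a mitochondrial share of 10% or more were left out, 75867 nuclei with 497727021 unique molecular identifiers (UMIs, each counting 1 captured transcript) were kept. The libraries held 51342120 to 107561475 UMIs and medians of 4471 to 5439 UMIs per nucleus. Pairs of libraries shared 20 to 75 barcode sequences, at most 0.545% of the smaller library, and none stood in all 6. Nuclei were called myeloid when at least 3 of 16 myeloid markers had a UMI and no other of 11 classes reached its own gate, and no member served as a marker. This gave 3472 myeloid nuclei, 3.79% to 5.90% of the nuclei of a library, with 11673602 UMIs. All 16 myeloid markers were detected. Csf1r, the receptor that myeloid survival depends on, had a UMI in 56.1% of myeloid nuclei and in 2.73% of excitatory neuron nuclei.

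Myeloid nuclei were divided by markers that were again not members. Microglia-like nuclei had at least 2 of 10 microglial markers and fewer than 2 of 10 border macrophage markers. Border macrophage-like nuclei had at least 2 border macrophage markers and more of these than of microglial markers. They could thus carry 2 or more microglial markers, so the 2 gates are not mirror images. The 2524 microglia-like nuclei carried P2ry12 in 55.5% and Mrc1, a mannose receptor of border macrophages, in 4.40%. The 212 border macrophage-like nuclei carried Mrc1 in 93.4% and P2ry12 in 23.1%. P2ry12 also had a UMI in 18.5% of excitatory neuron nuclei. Siglech, another microglial marker, had one in 68.3% of microglia-like, 6.60% of border macrophage-like and 1.49% of excitatory neuron nuclei. A further 639 nuclei had fewer than 2 markers of each list and reached neither subset. The remaining 97 had at least 2 of each list, with no more border macrophage than microglial markers, and were set apart as both. In the nuclei of neither subset the summed level of the myeloid markers was 2315 CPM (UMIs per 1000000 UMIs of the nuclei named), against 4781 CPM in microglia-like nuclei. The summed level of the 6 monocyte or granulocyte markers was 64.1 CPM there, and ranged from 3.22 to 225 CPM over libraries. Neuronal, astrocyte and oligodendrocyte markers were also present in all these subsets, at 1182 CPM for the 9 astrocyte markers in neither subset and 1221 CPM in microglia-like nuclei. Their part in the results was not tested.

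Levels are given in CPM, and all intervals are 95% exact intervals that cover counting error only, not the spread between mice. Because the reads count 3′ ends and the genes differ in length and capture, levels were compared within a gene and not between genes.

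Of the 9 measured members, 4 had their highest level among the 12 classes in myeloid nuclei. They were Gpnmb, Lgals3, Itgax and Cd68. Over all 18781 genes with at least 100 UMIs in these classes, 7.97% were highest in myeloid nuclei. Itgax (35 UMIs in myeloid nuclei and 38 in the other classes) and Cst7 (3 and 82) did not reach this minimum. Gpnmb stood at 32.6 CPM (29.4 to 36.0) in myeloid nuclei. Its next class was ependymal at 3.16 CPM (0.860 to 8.08), followed by oligodendrocyte progenitor cells (OPCs) at 2.73 CPM (1.73 to 4.10), and these lower classes overlapped in their intervals. Gpnmb was highest in the myeloid class in 3 of 6 libraries. With nuclei gated for a second class kept, it stood at 15.9 CPM in myeloid and 9.38 CPM in fibroblast nuclei, the next class.

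Lgals3 stood at 22.9 CPM (20.2 to 25.8) in myeloid nuclei and at 19.7 CPM (12.8 to 29.1) in ependymal nuclei, so the first and second class overlapped. It was highest in the myeloid class in 3 of 6 libraries. Ependymal nuclei were the higher without library 3 (18.6 against 14.6 CPM), with the gate at 2 myeloid markers (19.4 against 14.1 CPM) and with nuclei gated for a second class kept (17.1 against 12.7 CPM), which left 3 members highest in myeloid nuclei. The ependymal level ran from 15.8 to 25.6 CPM over libraries and the myeloid level from 0.805 to 47.4 CPM. With 25 ependymal UMIs in all 6 libraries, the counts are too few to show that the ependymal level was steady. Cd68 stood at 9.94 CPM (8.21 to 11.9) in myeloid nuclei against 3.94 CPM (1.28 to 9.21) in ependymal nuclei, and was highest in the myeloid class in 5 of 6 libraries. Itgax reached 3.00 CPM (2.09 to 4.17) in myeloid nuclei, from 35 UMIs, and at most 0.919 CPM, from 2 UMIs, in any other class. It was highest in the myeloid class in 2 of 6 libraries, and in library 4 stood at 6.71 CPM in fibroblast nuclei against 6.23 CPM in myeloid nuclei.

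The other 5 measured members were highest outside the myeloid class. Axl was highest in pericyte or smooth muscle nuclei at 54.7 CPM (43.3 to 68.1), then in fibroblast nuclei at 29.9 CPM and astrocyte nuclei at 28.0 CPM, and reached only 6.77 CPM in myeloid nuclei. Cd63 was highest in choroid plexus nuclei at 80.7 CPM (63.4 to 101) and stood at 50.2 CPM in myeloid nuclei. Spp1 was highest in fibroblast nuclei at 10.1 CPM (6.33 to 15.3), against 3.77 CPM (2.74 to 5.06) in myeloid nuclei. Lpl stood at 17.5 CPM (16.1 to 19.1) in GABAergic neuron nuclei, 15.9 CPM in pericyte or smooth muscle nuclei and 15.8 CPM (13.6 to 18.2) in myeloid nuclei, levels whose intervals overlapped. Cst7 had 3 UMIs in myeloid nuclei and was under 1 CPM in every class.

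**Figure D1:**
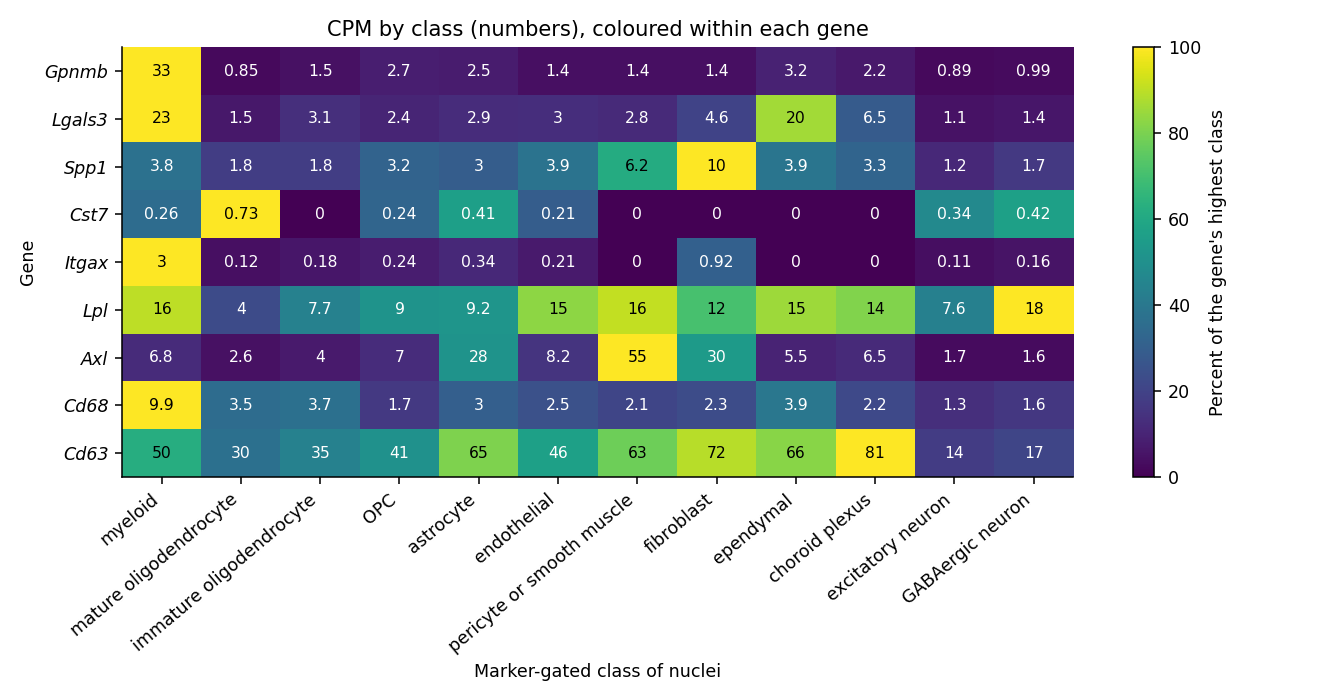
Level of each measured member (rows) in 12 marker-gated classes of nuclei (columns). Numbers are CPM over all libraries and colours give the percent of the gene's own highest class. Gpnmb, Lgals3, Itgax and Cd68 are highest in the myeloid column, and Axl is highest at 54.7 CPM in pericyte or smooth muscle nuclei.

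Of the members with at least 100 UMIs, Gpnmb and Lgals3, for which the list was chosen, varied most between libraries. In myeloid nuclei of libraries 1 to 6, Gpnmb counted 0, 5, 192, 102, 0 and 81 UMIs. These are 0, 2.29, 65.4, 42.4, 0 and 71.0 CPM. The 3 highest values were in libraries 6, 3 and 4, and the lowest of these had an interval of 34.6 to 51.4 CPM, while library 2 had 0.742 to 5.33 CPM. Libraries 1 and 5 had no Gpnmb UMI in 524 and 475 myeloid nuclei. With 3 counts as the limit, which is not an exact interval, this allows up to 1.70 and 2.42 CPM. With 3 counts set in place of the 0 of library 1, the level of library 6 was 41.7-fold higher, a value without an interval. The 0 of library 1 depended on the gate. With nuclei gated for a second class kept, library 1 stood at 2.09 CPM, library 2 at 0.557 CPM and library 5 at 0. Library 3 was then the highest at 37.7 CPM, 67.5-fold (28.7 to 209) over library 2.

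Lgals3 counted 11, 6, 139, 70, 1 and 40 UMIs in libraries 1 to 6, which are 6.24, 2.74, 47.4, 29.1, 0.805 and 35.1 CPM. Its highest values fell in the libraries that were highest for Gpnmb. Library 3 stood 58.8-fold over library 5 (10.4 to 2340), with only 1 UMI in library 5. Without library 5 the range was 17.3-fold.

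Itgax was found in libraries 3, 4 and 6, at a far lower count. It had 0, 0, 16, 15, 0 and 4 UMIs in libraries 1 to 6, or 0, 0, 5.45, 6.23, 0 and 3.51 CPM. With 3 counts set in place of the 0 of library 2, the level of library 4 was 4.54-fold higher, again without an interval. With 35 UMIs in all, Itgax stayed under the 100 UMIs required for the count below.

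Lpl was present in every library, at 10.8, 12.8, 20.8, 21.2, 4.83 and 16.7 CPM in libraries 1 to 6. Its range of 4.39-fold (1.88 to 12.5) rested on library 5, with 6 UMIs, and was 1.97-fold without it. It was also under 4-fold when nuclei gated for a second class were kept or when the gate asked for 2 or 5 markers. Cd68 stood at 5.11, 9.14, 14.0, 6.65, 8.05 and 17.5 CPM, a 3.43-fold range (1.49 to 8.56) between libraries 6 and 1. Cd63 stood between 40.7 and 58.8 CPM, with a 1.44-fold range (1.05 to 1.98), and its intervals overlapped for all pairs of libraries but 1 (libraries 3 and 4).

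Axl ranged from 3.22 CPM in library 5 to 11.4 CPM in library 6, on 79 UMIs. Spp1 ranged from 1.70 CPM in library 1 to 5.82 CPM in library 4, on 44 UMIs, and all its intervals overlapped. Cst7 had 1 UMI in each of libraries 1, 3 and 4 and none elsewhere.

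Of the 5 members with at least 100 UMIs in myeloid nuclei, 3 (Gpnmb, Lgals3 and Lpl) had a range of 4-fold or more between the highest and the lowest library. Of all 11330 genes with at least 100 UMIs, 1.67% had such a range. The median range over all 11330 genes was 1.63-fold. Since Gpnmb and Lgals3 were selected on this difference and reached 100 UMIs through the libraries where they were high, the count is a description of the choice.

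**Figure D2:**
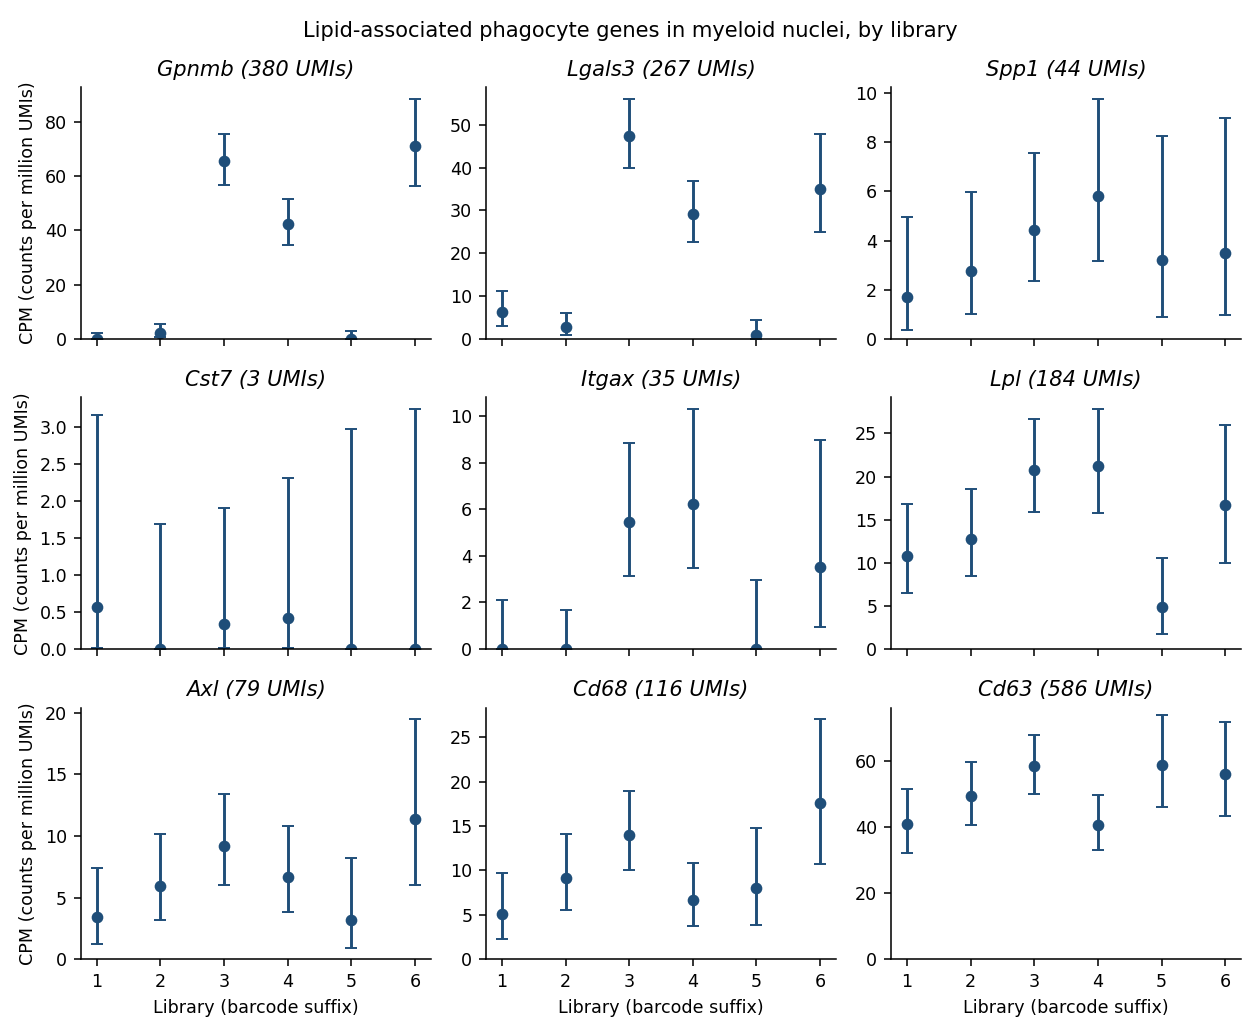
Level of each measured member in myeloid nuclei (y axis, CPM) by library (x axis), with 95% exact Poisson intervals of the counts; y axes start at 0 and differ between panels. Gpnmb stands at 0 to 2.29 CPM in libraries 1, 2 and 5 and at 42.4 to 71.0 CPM in libraries 3, 4 and 6, while Cd63 stays within 40.7 to 58.8 CPM.

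Outside the myeloid gate, libraries 3, 4 and 6 again had the highest Gpnmb levels, at much lower values. In nuclei gated for another class Gpnmb stood at 0.329, 0.540, 2.13, 2.88, 0.249 and 1.30 CPM in libraries 1 to 6. Of the 1357 Gpnmb UMIs in all nuclei, 28.0% lay in myeloid nuclei, 22.0% in nuclei gated as myeloid and as another class, 21.1% in nuclei of another class and 28.8% in nuclei of no class. Nuclei with 5 or more Gpnmb UMIs numbered 24 in the myeloid set, 18 in the set gated for a second class, 0 in nuclei of another class and 5 in nuclei of no class. The share of the low levels in other classes that comes from free RNA was not tested.

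By the share of nuclei with a UMI, libraries 3, 4 and 6 were again the highest, in another order than by level. Gpnmb was detected in 2.59% of myeloid nuclei (2.09 to 3.18), and in 0%, 0.492%, 6.38%, 3.80%, 0% and 2.89% of those in libraries 1 to 6. Library 6, the highest by CPM, was the lowest of these 3 by share, with 81 UMIs in 14 positive nuclei. With 3 nuclei as the limit, again not an exact interval, the zeros allow up to 0.573% in library 1 and 0.632% in library 5. In excitatory neuron nuclei, which should lack the gene and have a median of 9371 UMIs against 2476.5 in myeloid nuclei, the share was 0.871%. By library it was 0.197%, 0.158%, 1.31%, 2.15%, 0.206% and 1.05% in libraries 1 to 6, highest in library 4. The interval in excitatory neuron nuclei overlapped that in myeloid nuclei in library 4 (1.61 to 2.82 against 2.40 to 5.70) and library 6 (0.600 to 1.70 against 1.59 to 4.80), and not in library 3 (0.912 to 1.83 against 4.79 to 8.31). After thinning each nucleus to 2000 UMIs the shares were 2.73% and 0.232%, with 1058 myeloid and 66 excitatory neuron nuclei too shallow to enter. Thinned, libraries 3, 4 and 6 stood at 5.26%, 2.94% and 4.91% of myeloid nuclei against 0.388%, 0.633% and 0.262% of excitatory neuron nuclei. The value of library 6 rests on 8 nuclei with Gpnmb beside 155 without. Most of its 485 myeloid nuclei, with a median of 1634 UMIs, were too shallow.

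Lgals3 was detected in 3.60% of myeloid nuclei (3.01 to 4.27), from 0.211% in library 5 to 8.01% in library 3, and in 1.12% of excitatory neuron nuclei. Thinned, these pooled shares were 3.48% and 0.209%. Spp1 was detected in 1.18% of myeloid and 1.19% of excitatory neuron nuclei, and in 0.870% and 0.294% after thinning. Cst7, in 0.0864% of myeloid nuclei and 0.362% of excitatory neuron nuclei, stayed at background. Lpl was detected in 4.38% of myeloid and 6.74% of excitatory neuron nuclei, and in 3.02% and 1.71% after thinning. Its level in excitatory neuron nuclei was 7.61 CPM, lower than the 15.8 CPM of myeloid nuclei.

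Gpnmb UMIs were concentrated in few nuclei. The 90 positive myeloid nuclei held 4.22 UMIs each on average and up to 25. The 24 myeloid nuclei with 5 or more held 70.3% of the Gpnmb UMIs of myeloid nuclei. Lgals3 had 2.14 UMIs per positive nucleus and up to 13. Cd63, with a larger total of 586 UMIs, had 1.11 per positive nucleus, and 90.4% of its positive nuclei had a single UMI. For Spp1, Axl and Cd68, 92.7%, 94.7% and 95.5% of the positive nuclei had a single UMI.

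Gpnmb and Lgals3 were mostly found in the smaller subsets of myeloid nuclei. Border macrophage-like nuclei were 6.11% of myeloid nuclei and held 25.8% of the Gpnmb UMIs of myeloid nuclei (21.5 to 30.5). Nuclei of neither subset were 18.4% of myeloid nuclei and held 65.3% (60.2 to 70.05). Microglia-like nuclei were 72.7% and held 8.16% (5.61 to 11.4). For Lgals3 the same subsets held 31.8%, 49.4% and 15.4% of the UMIs. Cd63 was spread much as the nuclei were, with 71.8% of its UMIs in microglia-like and 5.80% in border macrophage-like nuclei. Cd68 had 70.7% of its UMIs in microglia-like nuclei and 12.1% (6.76 to 19.4) in border macrophage-like nuclei, above their share of nuclei.

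In border macrophage-like nuclei of libraries 1 to 6, Gpnmb stood at 0, 30.7, 363, 322, 0 and 105 CPM. The last value rests on 3 UMIs in 15 nuclei. Microglia-like nuclei of the same libraries stood at 0, 0, 3.92, 3.77, 0 and 19.0 CPM. Nuclei of neither subset stood at 0, 2.68, 201, 96.5, 0 and 352 CPM. In each of the 4 libraries with Gpnmb, the level was lower in microglia-like nuclei than in either of these subsets. The microglia-like level of library 6 was the highest of the 6, with 14 of its 17 UMIs in a single nucleus. Lgals3 stood at 27.1, 7.68, 369, 156, 0 and 245 CPM in border macrophage-like nuclei, against 1.09 to 8.94 CPM in microglia-like nuclei.

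The shares of the subsets also differed between libraries. Border macrophage-like nuclei were 8.02%, 7.70%, 5.76%, 4.32%, 7.79% and 3.09% of the myeloid nuclei of libraries 1 to 6, lowest in libraries 3, 4 and 6. Nuclei of neither subset were 15.8%, 14.9%, 21.4%, 24.0%, 14.1% and 18.1%, highest in libraries 3, 4 and 6. The libraries with the highest pooled Gpnmb thus had the smallest share of the first subset and the largest share of the second, and their Gpnmb was also the highest within each of these subsets, as given above. Libraries 1 and 5, without a Gpnmb UMI in myeloid nuclei, held 42 and 37 border macrophage-like nuclei. The part of the subset shares in the pooled levels was not tested.

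Pooled over libraries, border macrophage-like nuclei exceeded microglia-like nuclei 42.0-fold for Gpnmb (27.8 to 65.1), 27.5-fold for Lgals3 (18.7 to 41.0) and 19.9-fold for Itgax (7.49 to 56.2). Lgals3 was higher in border macrophage-like nuclei in 5 of 6 libraries and Gpnmb in 4, with no UMI in either subset in the other 2. Itgax was higher in 2 libraries, lower in 1 and absent from both subsets in 3. Smaller ratios were found for Axl at 3.92-fold (1.94 to 7.42), Spp1 at 3.72-fold (1.36 to 8.84), Lpl at 3.32-fold (2.05 to 5.19) and Cd68 at 2.27-fold (1.19 to 4.02). The ratio of Cd63 was 1.07 (0.733 to 1.52). The subset gate was not independent of Gpnmb. In Gpnmb-positive nuclei of libraries 3, 4 and 6, the microglial gate markers all had fewer UMIs than their level in Gpnmb-negative nuclei gives. Siglech, for example, had 20 against 99.6. The border macrophage marker Ms4a7 had 34 against 2.68, and such values of the other border macrophage markers are not reported here. The part of this in the ratios was not tested. Some of the ratios depended on the gate. With nuclei gated for a second class kept, the log2 ratio of Spp1 was 2.93 (against 1.89), of Axl 2.43 (against 1.97) and of Cd63 1.26 (against 0.101). Those of Spp1 and Axl then exceeded 4-fold. With the gate at 5 myeloid markers the log2 ratio of Cd68 was 0.595 (-0.665 to 1.64), and its interval held 0. The pooled ratios depended on single libraries. Without library 6 the log2 ratio of Gpnmb rose from 5.39 to 6.40 (5.58 to 7.32). Without library 3 the log2 ratio fell from 5.39 to 4.60 for Gpnmb, from 4.78 to 3.96 for Lgals3 and from 4.32 to 2.51 for Itgax. The interval of Itgax then ran from -0.073 to 4.64 and held 0. Without library 4 the log2 ratio of Itgax was 5.87 (3.60 to 9.12).

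Of the 8 members with at least 20 UMIs in these 2 subsets, 3 had a ratio of 4-fold or more. Of the 15066 genes tested in the same way, 1.78% did, and their median ratio was 1.03-fold. One of the 3 members was Itgax, which reached the minimum only through its 12 UMIs in border macrophage-like nuclei, beside 8 in microglia-like nuclei. The count depends on the gate, since Spp1 and Axl also exceeded 4-fold with nuclei gated for a second class kept. The share over all genes under that gate is not reported here.

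**Figure D3:**
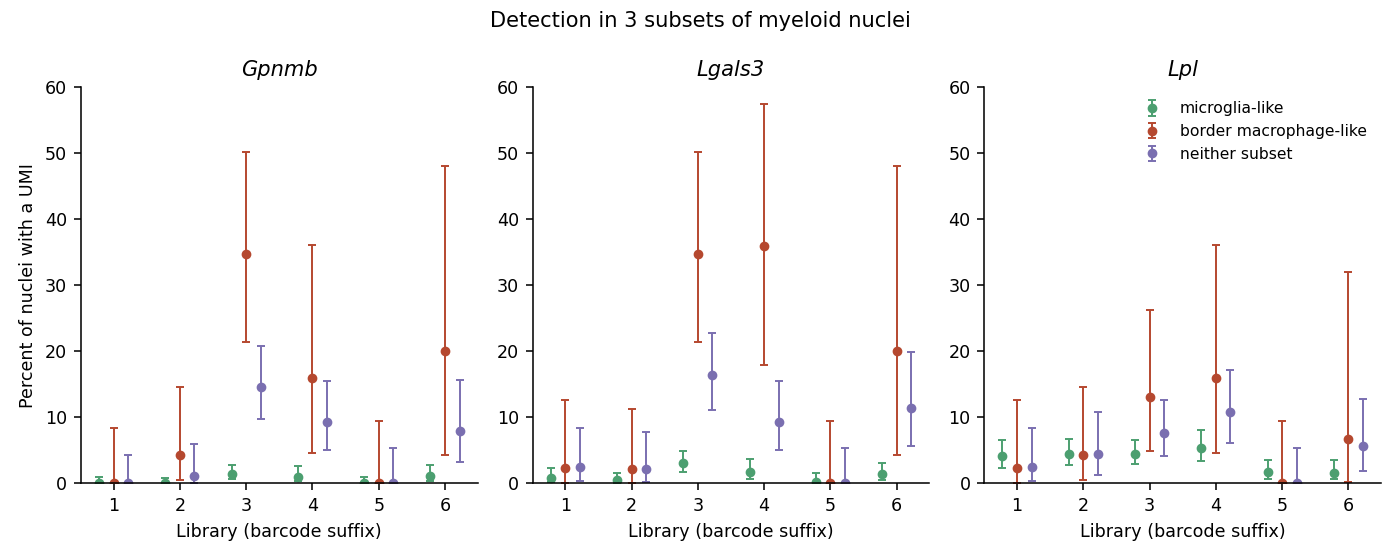
Percent of nuclei with a UMI of Gpnmb, Lgals3 or Lpl (y axis) by library (x axis) in 3 subsets of myeloid nuclei, with 95% exact binomial intervals. In border macrophage-like nuclei Gpnmb reaches 34.8% in library 3 and Lgals3 36.0% in library 4, and both stay at or below 3.05% of microglia-like nuclei in all libraries, and Lpl is seen in all 3 subsets.

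Gpnmb and Lgals3 were often detected in the same nuclei. Of the 90 Gpnmb-positive myeloid nuclei, 55 also had a UMI of Lgals3, which is 61.1% (50.3 to 71.2), against 2.07% (1.62 to 2.61) of the 3382 Gpnmb-negative nuclei. Within libraries 3, 4 and 6, the shares were 64.7%, 54.5% and 64.3% of Gpnmb-positive nuclei, against 4.14%, 3.23% and 1.91% of Gpnmb-negative nuclei. Library 2 had 3 Gpnmb-positive nuclei, too few to give a share. Gpnmb-positive nuclei were somewhat deeper, at a median of 2996.5 against 2463 UMIs. At 2000 UMIs per nucleus the pooled shares were 60.6% and 1.87%.

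Itgax, the integrin subunit, was detected in 21.1% of Gpnmb-positive nuclei (13.2 to 31.0) and 0.296% of Gpnmb-negative nuclei, and 19 of its 29 positive nuclei were Gpnmb-positive. Lpl was detected in 16.7% against 4.05%, Axl in 12.2% against 1.89% and Cd68 in 8.89% against 3.05%. For Spp1 the shares were 4.44% (1.22 to 11.0) and 1.09%, which rest on 4 nuclei. Cd63 was detected in 23.3% (15.1 to 33.4) against 15.0% (13.8 to 16.3). No Cst7 UMI was found in the 90 nuclei.

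**Figure D4:**
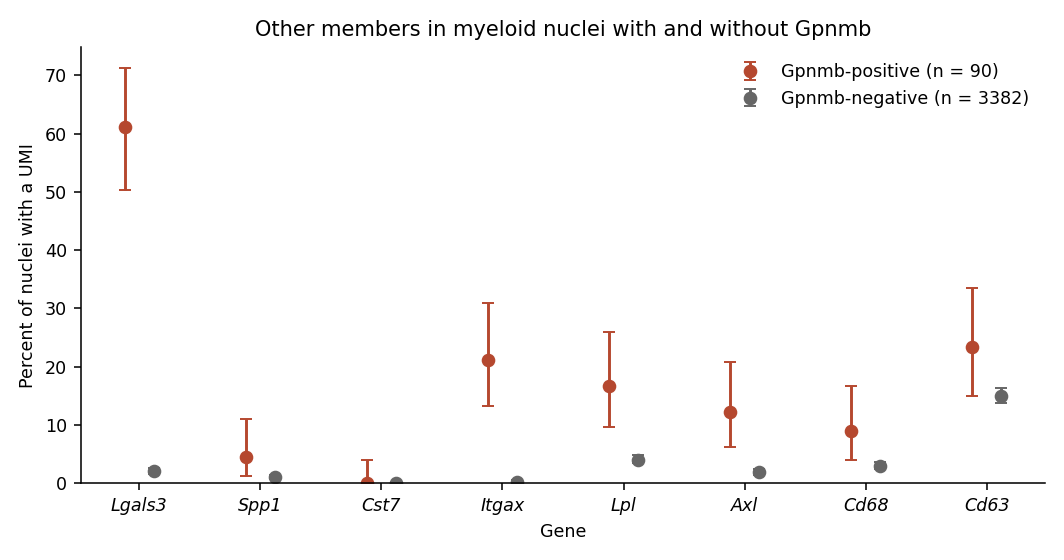
Percent of 90 Gpnmb-positive and 3382 Gpnmb-negative myeloid nuclei with a UMI of each other member (y axis), with 95% exact binomial intervals, over all libraries. Lgals3 stands at 61.1% against 2.07% and Itgax at 21.1% against 0.296%, while the intervals of Cd63 are close.

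The number of distinct members per nucleus was small. Leaving out Cd63, 37 of 3472 myeloid nuclei (1.07%) had 3 or more of the other 8 measured members, and 86.4% had none. These 37 nuclei lay in library 3 (21), library 4 (10) and library 6 (6). The largest number in a nucleus was 5.

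To compare Gpnmb-positive with Gpnmb-negative nuclei within a library, the UMIs of each gene in Gpnmb-positive nuclei were set against the number expected from its level in Gpnmb-negative myeloid nuclei of the same library. This used the 87 Gpnmb-positive nuclei of the 3 libraries with at least 10 of them (3, 4 and 6). Lgals3 had 167 UMIs where 4.65 were expected, a ratio of 35.9. Lpl had 30 against 5.71 (5.25-fold). Cd68 had 9 (4.12 to 17.1) against 3.94 (2.29-fold), of which 5 lay in library 3, 0 in library 4 and 4 in library 6. Without library 6 the ratio of Cd68 was 1.46, under 2. Cd63 had 25 against 17.7 (1.41-fold), and the interval of its count, 16.2 to 36.9, held the expected number. Of all 11329 genes with at least 100 UMIs in myeloid nuclei, 4.94% reached a ratio of 2. This minimum counts Gpnmb-positive nuclei too, and Lgals3 passed it only through them, with 99 UMIs in Gpnmb-negative nuclei. With the minimum set on Gpnmb-negative nuclei alone, an alternative chosen after seeing the data, Lpl and Cd68 of the 3 remaining members reached a ratio of 2, and Lpl alone without library 6. Of 11219 genes 4.7% did, and their median ratio was 0.971. Below these minimums, Itgax had 25 against 0.518 expected, Axl 11 against 2.56 and Spp1 4 against 1.44, all 4 in library 3.

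Of the 40 further genes of lipid-laden phagocytes on a wider list, 29 had at least 100 UMIs in Gpnmb-negative nuclei, and 14 of the 29 reached a ratio of 2, with a median of 1.99. Atp6v0d2, a subunit of the lysosomal proton pump, had only 35 UMIs in Gpnmb-negative nuclei and is not counted among them. It had 246 UMIs in Gpnmb-positive nuclei against 2.01 expected. Lilrb4a, an inhibitory receptor of myeloid cells, had 110 against 5.31. Plin2, the coat protein of lipid droplets, had 88 against 8.09, and Soat1, which esterifies cholesterol for storage, had 97 against 18.4. Pparg, a nuclear receptor that responds to fatty acids, had 137 against 14.0, and Mitf, a transcription factor of lysosomal genes, had 296 against 71.6. Lipa, the lysosomal acid lipase, had 28 against 7.07. These genes were named after their values were seen. Among the 29 genes that did not reach 2 were Trem2 (1.86), Abca1 (1.68), Cd9 (1.41), Apoe (1.29), Ctsd (1.25) and Fabp5 (1.08). Of the same 29 genes, 3 were below 1, among them Fabp3 (0.921) and Csf1, a growth factor, with 2 UMIs against 4.77. Lilrb4a and its neighbour Lilr4b are close copies, so reads may be divided between them.

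Of the 16 homeostatic microglia genes, 15 had at least 100 UMIs in Gpnmb-negative nuclei. All 15 had a ratio below 1 in Gpnmb-positive nuclei, with a median of 0.410, and 53.2% of all genes did. Without library 3, 4 or 6 in turn, 14 of the 15 did. Sall1, a transcription factor of microglia, had 4 UMIs against 28.5 expected, Siglech had 20 against 99.6 and the purinergic receptor gene P2ry12 33 against 79.7. Of the 16 genes, 10 are also microglial markers of the subset gate, and Gpnmb-positive nuclei were mostly not microglia-like. Among nuclei of neither subset, where these markers are low by the gate, libraries 3 and 4 had at least 10 Gpnmb-positive nuclei, 38 in all, and library 6 with 7 was not used. There the median over the 9 homeostatic genes with at least 20 UMIs in Gpnmb-negative nuclei was 0.946 and that over 25 further phagocyte genes was 2.44, against 0.95 over all 8368 genes with as many. In the same nuclei Lgals3 had a ratio of 26.1, with 21 UMIs in Gpnmb-negative nuclei, and Lpl 7.23, with 19. In border macrophage-like nuclei of library 3, with 16 Gpnmb-positive nuclei, the ratio of Lgals3 was 11.5, from 8 UMIs in Gpnmb-negative nuclei. There the median over 8 further phagocyte genes was 1.76, against 0.855 over all 1033 genes with at least 20 UMIs in Gpnmb-negative nuclei. The 2 homeostatic genes with as many had a median of 0.677. With the minimum of 20 set on observed and expected UMIs together, 4 homeostatic genes had a median of 1.27 and 14 phagocyte genes 2.02, against 1.03 over all 1072 genes, so the homeostatic genes were not below the other genes under both minimums. The 8 neuronal genes had a median of 0.825 over all myeloid nuclei.

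**Figure D5:**
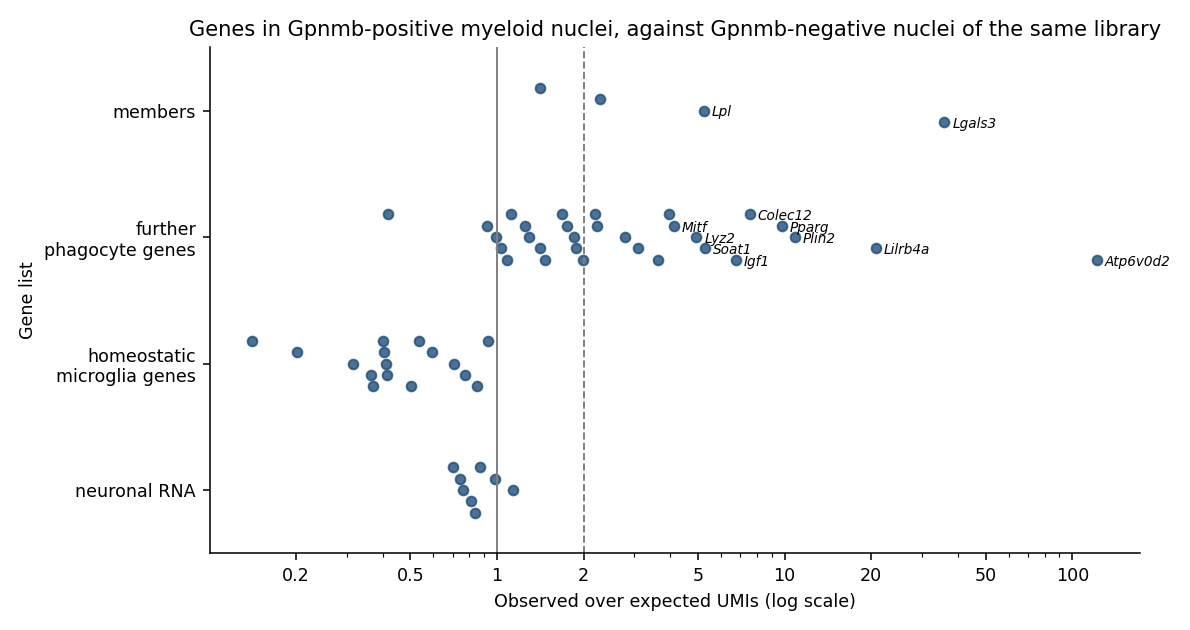
Ratio of observed to expected UMIs (x axis, log scale) in 87 Gpnmb-positive myeloid nuclei for genes with at least 100 UMIs in all myeloid nuclei, Gpnmb-positive ones included, by gene list (y axis); each point is a gene, the solid line marks 1 and the dashed line 2. Lgals3 (35.9) and Atp6v0d2 (122) lie far to the right, and the 16 homeostatic microglia genes all lie left of 1.

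Across libraries, the genes whose profile in myeloid nuclei was most like that of Gpnmb and Lgals3 were sought among 187 genes with at least 100 UMIs and a range of 4-fold or more. Likeness was the root mean square difference of centred log2 CPM over the 6 libraries, where a smaller value is closer. Atp6v0d2 was closest (0.67), with 0, 0, 55.6, 30.3, 0 and 39.5 CPM in libraries 1 to 6. Lilr4b followed (0.94), with 1.70, 1.37, 24.5, 15.4, 2.42 and 18.4 CPM, and then Mmp12, the macrophage metalloelastase (0.95), with 0, 0, 37.5, 6.23, 0.805 and 43.0 CPM. Lilrb4a, Anapc15, Myof, Gas2l3, Gm37168, Plin2 and Gm29260 completed the 10 closest, at 1.30 to 1.53. On the same measure Itgax stood at 1.03, with 3 of the 11328 tested genes other than Gpnmb and Lgals3 closer. Lpl stood at 1.66, with 20 genes closer, and Cd63 at 2.20, with 4463 closer.

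On the wider phagocyte list, 4 of 30 genes had a range of 4-fold or more between libraries, with a median range of 2.17-fold, against 1.67% of all 11330 genes and their median of 1.63-fold. The count was again 4 without any 1 library. The share of all genes was 0.759% without library 6 and 1.34% to 1.53% without any other library. The minimum of 100 UMIs is summed over libraries, so a gene can reach it through those where it is high, and the count is a description. Atp6v0d2 had all of its 281 UMIs in libraries 3, 4 and 6, and Lilrb4a had 11, 17, 109, 58, 11 and 41 UMIs in libraries 1 to 6. The 4 genes were Atp6v0d2 (at least 40.5-fold), Plin2 (7.57-fold, from 8.23 CPM in library 2 to 62.3 CPM in library 6, and 4.14-fold without that library or 4.83-fold without library 2), Lilrb4a (5.95-fold) and Csf1 (5.72-fold). The next was Slc37a2, a sugar phosphate transporter, at 3.65-fold, or 2.18-fold without library 6 and 2.41-fold without library 1. On the homeostatic list, 2 of 16 genes did, P2ry13 at 4.48-fold and Slc2a5 at 4.27-fold, with a median of 2.04-fold beside the same 1.63-fold. Both rested on library 4, with 8 UMIs each, and were 2.17-fold and 2.31-fold without it, which left none of the 16. Without library 1, Slc2a5 was at 3.58-fold. Gpr34, Tmem119 and Selplg ranged 2.92-fold, 2.89-fold and 2.67-fold, and Tmem119 1.79-fold without library 3. The summed level of the 40 phagocyte genes ran from 2726 CPM in library 5 to 4076 CPM in library 3, and that of the 16 homeostatic genes from 3301 CPM in library 4 to 5585 CPM in library 6.

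Markers of other cell types, and genes that respond to tissue handling, were set beside these ranges. The paper reports fewer immature and mature oligodendrocytes in Npc1-/- forebrain at this age, and genotype could not be assigned to libraries here. The summed level of the 8 mature oligodendrocyte markers in myeloid nuclei was 384, 400, 125, 100, 360 and 56.1 CPM in libraries 1 to 6, a 7.13-fold range with its 3 lowest values in libraries 3, 4 and 6. That of the 6 monocyte or granulocyte markers was 28.9, 50.3, 14.3, 8.31, 16.9 and 9.64 CPM, a 6.05-fold range with its 3 lowest values in the same libraries. The other marker lists each ranged less than 3-fold. Among them, the border macrophage markers also had their 3 lowest values in libraries 3, 4 and 6. Their summed level in myeloid nuclei was 547, 603, 276, 265, 715 and 413 CPM in libraries 1 to 6. Within border macrophage-like nuclei it ran from 2688 to 9432 CPM over libraries. The summed level of the 8 neuronal genes in myeloid nuclei ran from 9744 CPM in library 6 to 12865 CPM in library 4, and Syt1, Rbfox3, Slc17a7, Gad2 and Celf4 each ranged less than 2-fold. Of the 4 immediate early and heat shock genes with enough UMIs, Dnajb1 ranged 6.43-fold, with its lowest level in library 6, and Egr1 3.77-fold. Without library 6 these ranges were 2.31-fold and 2.36-fold. Jun and Junb ranged 1.37-fold and 1.61-fold. Nfkbia, on the interferon and inflammatory list, ranged 1.77-fold, and Top2a, a cell cycle gene, 1.92-fold. The part of these differences in the member levels was not tested.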

How the data were processed

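Frozen forebrains, 3 WT and 3 Npc1-/-, taken at postnatal day 16, gave nuclei that were profiled with 10x Genomics 3′ chemistry. Per the file headers, the deposited matrix holds UMI counts (whole numbers, not normalized) written by Cell Ranger 6.0.0, while the submitters' processing notes name Cell Ranger 2.1.1 and mm10, and the study's methods name STARsolo, GRCm38 and filters for empty droplets and multiplets. No key from barcode suffix to mouse was given in the sources used here, so the planned edgeR test of genotype was not run and no p-value was computed.

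Classes were gated by detected markers: at least 3 of 16 for myeloid nuclei, and at least 4 and at least 50% of the list for other classes. Nuclei reaching 2 classes were left out, which stands in for doublet removal, since no doublet caller was run. The limits for other classes and for the subsets, at least 2 of 10 markers, were set after the data had been seen. The members and all lists were chosen with earlier results of these data known. The genes named are the 10 members, up to 5 genes of each list with the largest range over libraries, and the 10 genes of closest profile, and some genes are not reported here. Genes named for their ratio of observed to expected UMIs were chosen after their values were seen.

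UMI sums per class and library were scaled to CPM, with exact Poisson intervals, and shares of nuclei and ratios of sums carry exact binomial (Clopper-Pearson) intervals, all at 95%. Where a count was 0, 3 counts served as the limit per library. Profiles used log2(CPM + 1). The calculation of ranges was tested on simulated counts. Nuclei were thinned to 2000 UMIs by hypergeometric sampling. Python 3.11.15, numpy 2.4.6, scipy 1.17.1 and edgeR 4.0.16 (for TMM factors) were used.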

Additional observations from a re-analysis of the deposited data

How the results depend on the processing

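Of 131 values recomputed under another gate, limit or scaling, 118 stayed within the interval of the reported value (counts: within 1.5 times), as did 146 of 156 values recomputed without 1 library. Some could hardly leave their interval. The library range of Gpnmb had no upper limit, so 144-fold with the gate at 2 markers counted as within. That of Lgals3 had an interval of 10.4 to 2340. The share of Gpnmb-positive myeloid nuclei with Lgals3 was 49.6% with the gate at 2 markers, and 56.4% to 63.2% without 1 library. The log2 ratio of Lgals3 between border macrophage-like and microglia-like nuclei was 4.20 with nuclei gated for 2 classes kept, and 3.96 to 4.93 without 1 library. That of Gpnmb was 4.60 to 6.40 without 1 library. That of Cd63 moved most with nuclei gated for 2 classes kept, to 1.26 (1.05 to 1.46). It turned to -0.039 under TMM scaling, and ran from -0.13 to 0.16 without 1 library. At a minimum of 300 UMIs only Gpnmb and Cd63 remained, and 1 had a 4-fold range over libraries, Gpnmb, which was chosen for this difference. The share over all genes at that minimum is not reported here. The number with such a range was 0 of 2 members with 100 UMIs in microglia-like nuclei alone (1.64% of 10121 genes). It was 2 of 3 in nuclei of neither subset alone (6.62% of 4892 genes). No count could be given for border macrophage-like nuclei alone, where no member has 100 UMIs. With the minimum on Gpnmb-negative nuclei, 2, 2 and 1 of 3 members were at least 2-fold over expected without library 3, 4 and 6, against 8.04%, 6.05% and 4.60% of all genes. The last 3 alternatives were chosen after seeing the data. Without 1 library the share of myeloid nuclei with a UMI was 1.46% to 3.05% for Gpnmb and 2.28% to 4.19% for Lgals3, lowest without library 3 in both.

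No paired analysis was possible because no key links the libraries to the numbered mice, and for the same reason the alternatives planned for the genotype test (DESeq2, its size factors, no filter on low counts and leaving out each replicate) were not run. The depth limits Cst7, Itgax and Spp1 most, with 3, 35 and 44 UMIs in myeloid nuclei.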

Other observations

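The Gpnmb level in myeloid nuclei left a gap between libraries. In libraries 1 to 6 it stood at 0, 2.29, 65.4, 42.4, 0 and 71.0 CPM. With nuclei gated for a second class kept it stood at 2.09, 0.557, 37.7, 21.4, 0 and 30.2 CPM. Lgals3 left a gap at the same place, with 6.24, 2.74, 47.4, 29.1, 0.805 and 35.1 CPM in libraries 1 to 6 under the main gate. Gpnmb and Lgals3 were chosen for differing between libraries. Atp6v0d2, named as the closest to their profile, had no UMI in libraries 1, 2 and 5 and stood at 30.3 to 55.6 CPM in the others, so none of the 3 is independent support for the gap. Cd68 and Cd63 left no such gap. Itgax, Lpl, Axl and Spp1 also had their 3 highest levels in libraries 3, 4 and 6. Those of Itgax were 5.45, 6.23 and 3.51 CPM against 0 in the others. Lpl stood at 20.8, 21.2 and 16.7 CPM against at most 12.8 CPM. Axl stood at 9.20, 6.65 and 11.4 CPM against at most 5.94 CPM. Spp1 stood at 4.43, 5.82 and 3.51 CPM against at most 3.22 CPM, with overlapping intervals. The libraries carry no genotype or batch label here, so genotype, dissection and library preparation cannot be told apart.

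Outside the lists, the genes with the highest ratio of observed to expected UMIs in Gpnmb-positive myeloid nuclei, chosen after their values were seen, included Mmp12 (145 UMIs against 1.51 expected) and Myof, a membrane repair protein (101 against 2.60). They also included Apobec1, a cytidine deaminase (276 against 17.1), Anxa4, a calcium-dependent membrane-binding protein (60 against 3.11), Cd44, the hyaluronan receptor (32 against 2.59), and Ms4a7, a macrophage gene and a marker of the border macrophage list (34 against 2.68). The minimum of 100 UMIs was reached only through Gpnmb-positive nuclei by Mmp12, Myof, Anxa4, Cd44 and Ms4a7, which had 30, 83, 99, 71 and 91 UMIs in Gpnmb-negative nuclei, while Apobec1 had 509 there. Ifitm10 was among the genes with fewer UMIs than expected (10 against 62.2).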
